A study of Mus musculus with 56 samples.

Results

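The genes examined were *Cd28*, *Icos*, *Cd80*, *Cd86*, *Cd226*, *Cd2*, *Cd5* and *Cd6*, which encode CD28, the B7 ligands and other costimulatory or signal-tuning molecules of T cells. They were taken by symbol from a table of raw RNA-Seq counts and made up 8 of its 55359 genes. All 8 passed the filter on low counts and were among the 19657 genes tested.

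A T cell is activated through its antigen receptor together with a second signal from costimulatory receptors. CD28 binds CD80 and CD86 (B7-1 and B7-2), which are best known on antigen-presenting cells and also appear on activated T cells, and CTLA-4 competes for the same ligands. ICOS is a relative of CD28 that is induced by activation and binds ICOS ligand, while CD226 (DNAM-1) shares its ligands CD155 and CD112 with the inhibitory receptor TIGIT. CD2 is an adhesion receptor that binds CD48 in the mouse, and CD5 and CD6 are related scavenger-receptor proteins that tune antigen receptor signals. In CD8 T cells, chronic antigen is known to hold inhibitory receptors high, and signals through CD28 and CD226 are targets of those receptors.

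RNA-Seq was performed on CD8 T cells that bound OVA:Kb tetramers (fetus/graft-specific T cells, TFGS), sorted from the spleen and lymph nodes of C57BL/6 females bought at 8 to 12 weeks of age. Naive mice (n = 3) were neither grafted nor mated. Sensitized mice (n = 4) had been grafted with skin of male 2W-OVA.BALB/c donors at least 30 days before harvest, had rejected it and were not mated. Ungrafted females mated with 2W-OVA.BALB/c males gave the N+P C1 (PD1-, n = 3) and N+P C5 (PD1+CD73+, n = 3) subsets at post-partum day 0 to 3. Grafted females mated with the same males gave the S+P C4 (PD1-, n = 6), S+P C5 (PD1+CD73+, n = 6) and S+P C7 (PD1+CD73-, n = 5) subsets at the same time. The donors express the model antigen 2W-OVA throughout the body, so the cells are of a single peptide specificity, and SmartSeq2 libraries were made from only 200 sorted cells per sample. The subsets are flow gates on PD1 and CD73, and in such bulk samples fewer cells expressing a gene and less RNA per cell cannot be told apart.

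After technical libraries were summed, the 30 samples held 15547934 to 54809406 counts each. 3 samples had fewer than 9000 genes detected and stood apart in this respect, namely S+P C4 replicates 2 (8002 genes) and 3 (7436) and S+P C7 replicate 3 (7879). A library with the same counts in a Naive and an S+P C4 sample was left out of both, while the mean of a nearly identical library pair, labelled S+P C7 replicate 1 and replicate 2, was carried as S+P C7 replicate 1. All 6 CD8 T cell markers were detected, at a summed 4490 to 8790 CPM (counts scaled to a common library size, with TMM factors) in every sample. S+P C7 replicate 3 stood apart in markers of other cells. It held 8230 CPM of *Ighm*, with the other 5 B cell markers at 0, and 1320 CPM of 6 dendritic cell and macrophage markers, most of it *H2-Aa* at 1260 CPM. It also held 810 CPM of 3 NK cell markers and 16500 of 3 red cell markers. The highest sums of these 4 lists in the other samples were 1370, 386, 142 and 349 CPM.

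*Icos* was the gene of the 8 that set the PD1+CD73+ subsets apart most regularly, with 251 to 274 CPM in N+P C5 against at most 96.5 CPM in Naive or N+P C1, and a higher level in S+P C5 than in the S+P C4 sample with the same replicate number in each of 6 pairs. *Cd226* was lower in S+P C5 than in S+P C4 in each of those pairs. None of the 8 genes, however, passed both thresholds (an adjusted p below 0.1 with a log2 fold change beyond ±0.9) in any of 11 comparisons. The test was edgeR's quasi-likelihood test, and its p-values were adjusted by Benjamini-Hochberg over all genes tested. Genes past both thresholds were few throughout. They were 0.153% of all genes tested in Sensitized vs. Naive, 0.0% in N+P C1 vs. Naive, 0.0407% in N+P C5 vs. Naive and 0.00509% in N+P C5 vs. N+P C1. They were 0.00509% in S+P C4 vs. Sensitized, 0.0712% in S+P C5 vs. Sensitized, 0.0305% in S+P C7 vs. Sensitized, 0.0305% in S+P C5 vs. S+P C4, 0.0% in S+P C7 against S+P C5, 0.0% in S+P C5 against N+P C5 and 0.0254% for the difference between the pregnancy effects, which is S+P C5 vs. Sensitized minus N+P C5 vs. Naive.

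At an unadjusted p under 0.05, 2 of the 8 genes (*Icos* and *Cd80*) were counted in N+P C5 vs. Naive, where 5.33% of all genes were, and the same 2 in N+P C5 vs. N+P C1 (4.31% of all genes). *Icos* and *Cd226* were counted in S+P C5 vs. S+P C4 (13.3%), and *Cd28* and *Icos* in S+P C7 against S+P C5 (12.7%). 1 gene was counted in each of 5 further comparisons, which were Sensitized vs. Naive (*Cd80*, 7.82% of all genes), S+P C5 vs. Sensitized (*Icos*, 13.0%), S+P C7 vs. Sensitized (*Cd226*, 10.2%), S+P C5 against N+P C5 (*Cd226*, 5.88%) and the difference between the pregnancy effects (*Cd80*, 6.42%). The comparisons of N+P C1 with Naive (3.23% of all genes) and of S+P C4 with Sensitized (12.7%) counted 0 of the 8. DESeq2 on the same summed counts called *Cd80* in Sensitized vs. Naive (2.73% of its genes), N+P C5 vs. Naive (2.52%), N+P C5 vs. N+P C1 (2.05%) and the difference between the pregnancy effects (2.05%), and *Icos* and *Cd226* in S+P C5 vs. S+P C4 (2.51%). Its log2 fold changes for *Cd80* were 21.35, 24.08, 24.07 and -21.45 in that order. Each rests on a group with 0 counts, so these sizes are not usable estimates.

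**Figure D1:**
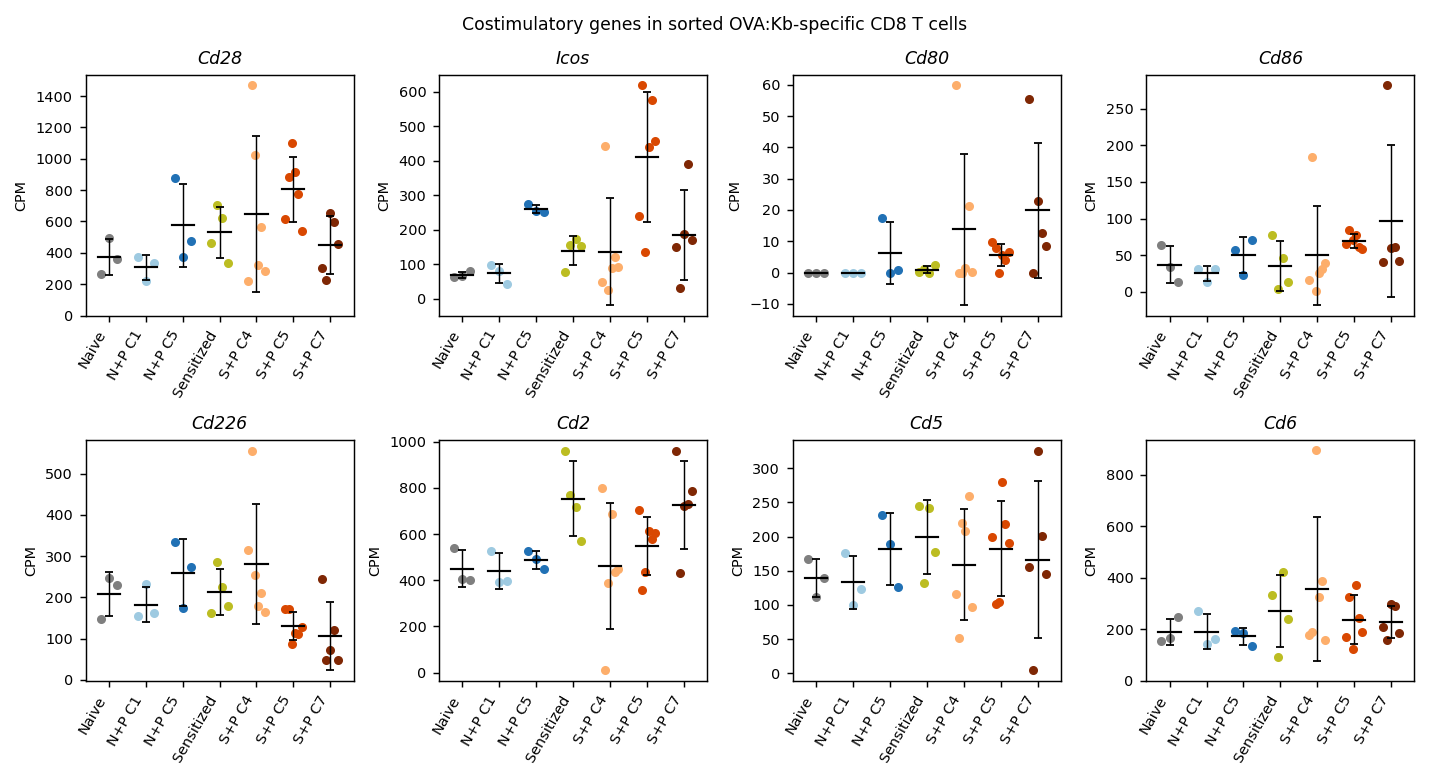
Level of each of the 8 genes (y axis, CPM on a linear scale) in the 7 sorted groups (x axis), with 1 point per sample, a line at the mean and bars of 1 SD. *Icos* sits at 251 to 274 CPM in the 3 N+P C5 samples, above every Naive and N+P C1 sample, and *Cd80* is at 0 in all 6 samples of those groups.

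*Icos* (ENSMUSG00000026009, GRCm39 chr1:61017086-61039479, plus strand) encodes an inducible receptor that signals mainly through phosphoinositide 3-kinase. Its level was 62.7, 65.5 and 79.2 CPM in the Naive samples, 96.5, 80.2 and 42.9 CPM in N+P C1, and 274, 255 and 251 CPM in N+P C5. All N+P C5 samples were above all samples of both other groups, a separation also seen upward in 7.4% of all genes against Naive and in 5.48% against N+P C1. The N+P C5 mean was 260.1 ± 12.3 CPM (SD, n = 3), where Naive had 69.1 ± 8.80 and N+P C1 had 73.2 ± 27.5 with the same n. On the log2 scale N+P C5 was 1.91 ± 0.75 (SE) over Naive and 1.83 ± 0.75 over N+P C1. Neither passed after adjustment by edgeR's quasi-likelihood test (adjusted p = 0.765, with 0.000786 to 1 over the alternatives, and 0.919, with 0.000263 to 1). The low end of both ranges came from DESeq2 on separate technical libraries, which treats technical libraries as mice. On summed libraries, edgeR's test on only the groups compared gave an adjusted p of 0.021 over Naive and 0.0848 over N+P C1.

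In the grafted mice, *Icos* was at 78.2, 154, 174 and 151 CPM in Sensitized samples, and its lowest, median and highest levels were 135, 449 and 618 CPM in S+P C5. They were 25.7, 90.3 and 443 CPM in S+P C4, and the S+P C7 samples held 149, 29.7, 188, 389 and 169 CPM. The groups overlapped, since S+P C5 replicate 3 lay within the Sensitized range and S+P C4 replicate 2 lay within that of S+P C5. The fitted log2 fold change of S+P C5 was 1.56 ± 0.61 (SE) over Sensitized, with an adjusted p of 0.277 by edgeR's test (0.000226 to 0.961 over the alternatives). Over S+P C4 it was 1.59 ± 0.53, with an adjusted p of 0.297 (4.06e-05 to 1). Here too both low ends came from DESeq2 on separate technical libraries.

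Subsets with the same replicate number were read as pairs from 1 mouse, which the labels do not state outright, and the order of *Icos* within pairs was regular. It was higher in S+P C5 than in S+P C4 in 6 of 6 pairs, as were 3.6% of all genes, with a median difference of 2.29 and a range of 0.48 to 2.35 on the log2(CPM + 1) scale. It was lower in S+P C7 than in S+P C5 in 5 of 5 pairs, as were 4.32% of all genes, with a median difference of -1.22, and in 4 of 4 without pair 1, whose S+P C7 value includes the averaged pair. The fit gave a log2 fold change of -1.15 ± 0.55 (SE) for S+P C7 against S+P C5, which did not pass (adjusted p = 0.375 by edgeR's test, 0.11 to 1 over the alternatives). In the ungrafted mice *Icos* was higher in N+P C5 than in N+P C1 in 3 of 3 pairs, as were 11.5% of all genes.

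The call for *Icos* depended on the fit, and some alternatives that kept all samples also called it. In S+P C5 vs. Sensitized these were only edgeR and DESeq2 on separate technical libraries, which treat technical libraries as mice. Another alternative left out the 3 samples with fewer than 9000 genes, which are S+P C4 and S+P C7 samples. In comparisons without those groups they act only through the model shared by the 7 groups. Without these samples, *Icos* passed both thresholds and rose in N+P C5 vs. Naive (log2 fold change 1.93, adjusted p = 0.0459, against 0.614% of all genes called), in S+P C5 vs. Sensitized (1.58, adjusted p = 0.0304, 1.02% of genes) and in S+P C5 vs. S+P C4 (2.22, adjusted p = 0.00854, 0.169% of genes) by edgeR's test. The sample of these that moved the last value most was S+P C4 replicate 2, without which the log2 fold change was 2.43 (adjusted p = 0.1 by edgeR's test, rounded from above the threshold). The pregnancy effect on *Icos* was not shown to differ between grafted and ungrafted mice, the difference being -0.35 ± 0.93 (SE) on the log2 scale (adjusted p = 1 by edgeR's test). Sensitized vs. Naive gave 1.01 ± 0.70 (SE), with an adjusted p of 0.844 by edgeR's test (0.372 to 1 over the alternatives).

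**Figure D2:**
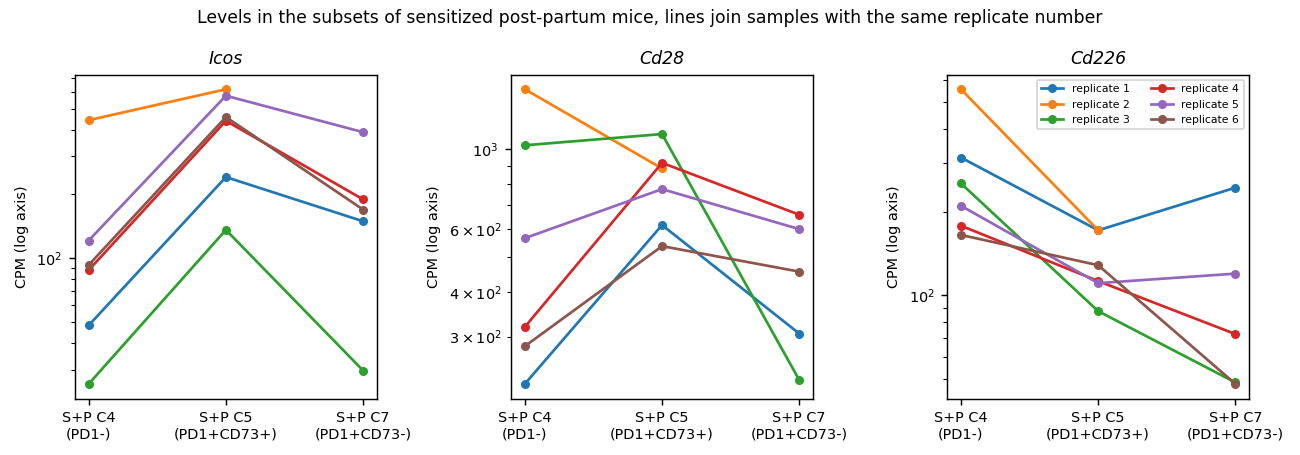
Levels of *Icos*, *Cd28* and *Cd226* (y axis, CPM on a log axis) in the subsets of the grafted, mated females (x axis), with 1 line per replicate number, and no S+P C7 point for replicate 2, whose library was averaged into that of replicate 1. All 6 *Icos* lines go up from S+P C4 to S+P C5, and all 6 *Cd226* lines go down.

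*Cd28* (ENSMUSG00000026012, GRCm39 chr1:60755959-60812518, plus strand), the gene of the main costimulatory receptor, lies on the same chromosome as *Icos* and was read in every sample, at 219.7 CPM or more. The Naive samples held 264, 493 and 362 CPM, the N+P C1 samples 373, 220 and 335 CPM, and the N+P C5 samples 876, 375 and 474 CPM. All N+P C5 samples were above all N+P C1 samples, if only by 375.1 against 373.2 CPM at the boundary, a separation seen upward in 5.48% of all genes. Their log2 fold change was 0.89 ± 0.53 (SE), which did not pass (adjusted p = 0.925 by edgeR's test, 0.0958 to 1 over the alternatives). The 0.0958 came from DESeq2 on separate technical libraries.

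The Sensitized samples held 463, 703, 620 and 334 CPM of *Cd28*. Its lowest, median and highest levels were 221, 442 and 1471 CPM in S+P C4 and 536, 829 and 1103 CPM in S+P C5, and the S+P C7 samples held 306, 227, 657, 599 and 455 CPM. The highest levels in S+P C4 were those of replicates 2 and 3, with 1471 and 1026 CPM, which are the samples with few genes detected. Between samples with the same number, *Cd28* was lower in S+P C7 than in S+P C5 in 5 of 5 pairs, as were 4.32% of all genes. It was higher in S+P C5 than in S+P C4 in 5 of 6 pairs, and 13.4% of all genes were higher in at least 5 of them. The log2 fold change of S+P C7 against S+P C5 was -0.84 ± 0.39 (SE), with an adjusted p of 0.35 by edgeR's test (0.21 to 1 over the alternatives).

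*Cd80* (ENSMUSG00000075122, GRCm39 chr16:38275923-38316697, plus strand) was the rarest transcript of the 8. It had 0 counts in all 3 Naive and all 3 N+P C1 samples, which allows up to 0.0371 CPM over the Naive group and 0.031 CPM over N+P C1, if 3 counts are taken as the limit. N+P C5 had 17.6, 0 and 0.776 CPM, and Sensitized had 0.018, 1.2, 0 and 2.39 CPM. Pooled over the group, the N+P C5 level of *Cd80* was at least 204-fold higher than that of Naive and at least 243-fold higher than that of N+P C1, and the Sensitized level was at least 21.5-fold higher than that of Naive. These bounds cover counting error only, since reads amplified by PCR without molecular identifiers are not separate molecules. They do not cover the spread between samples, so they are no lower limits for the groups of mice. N+P C5 replicate 2 and Sensitized replicate 3 had no count, like the Naive samples.

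A single sample carried most of the N+P C5 reads. 836 of its 861 *Cd80* counts were in replicate 1, whose 2 technical libraries read 0.206 and 27.0 CPM. In S+P C4 the lowest, median and highest levels were 0, 0.817 and 59.8 CPM, and in S+P C5 they were 0, 6.06 and 9.86 CPM. S+P C7 samples held 55.5, 0, 23.0, 12.7 and 8.44 CPM. *Cd80* was thus detected in 5 of 6 S+P C5 samples and 4 of 5 S+P C7 samples, where S+P C5 replicate 3 and S+P C7 replicate 3 had no count. It was also detected in 4 of 6 S+P C4 samples and 3 of 4 Sensitized samples, so detection was not particular to PD1+ subsets. S+P C7 vs. Sensitized gave for *Cd80* a log2 fold change of 4.46 ± 2.42 (SE), with an adjusted p of 0.583 by edgeR's test (0.2 to 1 over the alternatives).

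CD80 is best known on dendritic cells, macrophages and B cells, so their markers are given beside it. The 6 dendritic cell and macrophage markers summed to 0.907 to 40.9 CPM in Naive, 0 to 0.0861 in N+P C1, 2.95 to 16.6 in N+P C5, 29.8 to 386 in Sensitized, 0.469 to 106 in S+P C4, 0 to 30.2 in S+P C5 and 33.7 to 1320 in S+P C7. *Itgax* was at 0 CPM in each Naive sample, at most 0.0287 in N+P C1, 2.95 to 11.8 in N+P C5 and 29.8 to 84.3 in Sensitized. The other markers did not follow it in Sensitized, where *Adgre1* and *Flt3* were at 0, *Csf1r* at most 0.4 CPM and *H2-Aa* at most 0.2 CPM. *Lyz2* made 332 of the 386 CPM in Sensitized replicate 1. N+P C5 replicate 1, the sample of its group with most *Cd80*, also held 194 counts of *H2-Aa* (4.07 CPM) and 36 of *Csf1r* (0.756 CPM), with *Adgre1*, *Lyz2* and *Flt3* at 0. S+P C4 replicate 1, with 59.8 CPM of *Cd80*, held 76.2 CPM of *Itgax*, 19.1 of *Csf1r* and 10.8 of *Lyz2*, with the other 3 markers at 0. The 6 B cell markers summed to 1330 CPM in N+P C5 replicate 1, of which *Ighm* made 1270 CPM, and to 503 and 361 CPM in the other N+P C5 samples, while the Naive samples, with no *Cd80* count, held 671 to 1370 CPM. The part of these markers in the *Cd80* values was not tested.

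The 250 bases before the *Cd80* transcript start are shown because this is the member that had no count in some groups and many in others. They are taken from RefSeq on build GRCm38.p6, at chr16:38458683-38458932 on the plus strand, 5′ to 3′, and the capitals mark the match to the AP-1 motif TGANTCA.
Cd80 promoter: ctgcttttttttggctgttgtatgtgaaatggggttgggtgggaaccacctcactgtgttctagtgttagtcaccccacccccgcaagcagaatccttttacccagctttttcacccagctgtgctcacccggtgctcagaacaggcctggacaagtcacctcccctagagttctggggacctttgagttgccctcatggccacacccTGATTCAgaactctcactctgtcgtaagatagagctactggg

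The AP-1 match began at position -42 relative to the transcript start, and 6.75% of 32851 promoters of the same length held this motif on either strand. The window held no match to the NFAT core GGAAA (55.6% of promoters) or to TATAAA (12.4%). A match of letters is a description of the sequence and no measure of binding.

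*Cd86* (ENSMUSG00000022901, GRCm39 chr16:36424044-36486443, minus strand), the gene of the other B7 ligand, was read in all 30 samples. The Naive samples held 63.5, 34.4 and 13.1 CPM, N+P C1 held 31.0, 12.8 and 30.9 CPM, N+P C5 held 57.1, 22.1 and 70.9 CPM, and Sensitized held 77.7, 3.6, 46.5 and 12.9 CPM. The spread within these groups was as wide as the differences between them. S+P C5 was the even group, with a lowest, median and highest level of 58.9, 67.7 and 84.5 CPM, against 0.695, 28.3 and 184 CPM in S+P C4. S+P C7 samples held 40.1, 282, 59.3, 61.8 and 42.4 CPM.

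The 282 CPM of *Cd86* in S+P C7 replicate 3 came from the sample with high *Ighm*, *H2-Aa*, NK cell and red cell markers. Of its dendritic cell and macrophage markers, *Itgax* was at 40.8 CPM and *Adgre1* at 16.6 CPM, and *Csf1r*, *Lyz2* and *Flt3* were at 0. In S+P C4 replicate 2, the sample with 184 CPM, the 6 dendritic cell and macrophage markers summed to 0.469 CPM, from 9 counts of *Lyz2*, and the 6 B cell markers to 1.2 CPM. The part of these markers in the *Cd86* values was not tested. The log2 fold change of *Cd86* was 0.98 ± 0.89 (SE) in S+P C5 vs. Sensitized and 1.47 ± 0.93 in S+P C7 vs. Sensitized (adjusted p = 0.949, with 0.346 to 1 over the alternatives, and 0.749, with 0.418 to 1, by edgeR's test). Precision was poor for this gene. Technical libraries of the same replicate and subset differed by a median of 0.994 on the log2(CPM + 1) scale over 23 pairs, where *Cd2* differed by 0.207 and *Icos* by 0.353.

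*Cd226* (ENSMUSG00000034028, GRCm39 chr18:89195087-89290353, plus strand) encodes the activating partner of TIGIT. It was at 148, 247 and 230.2 CPM in Naive, 154, 232 and 162 CPM in N+P C1, and 334, 174 and 272 CPM in N+P C5. Sensitized samples held 161, 287, 224 and 179 CPM. The lowest, median and highest levels were 165, 232 and 556 CPM in S+P C4 and 87.7, 121 and 172 CPM in S+P C5, and S+P C7 samples held 245, 48.4, 72.5, 120 and 47.9 CPM. The grafted, mated females thus held less *Cd226* in most PD1+ samples than in their PD1- samples.

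Between samples with the same number, *Cd226* was lower in S+P C5 than in S+P C4 in 6 of 6 pairs, as were 0.88% of all genes, with a median difference of -0.90 and a range of -1.69 to -0.36 on the log2(CPM + 1) scale. The highest S+P C4 level, 556 CPM, was that of replicate 2, which like replicate 3 had few genes detected. The order was the same in every pair without these replicates. On the log2 scale the fold change was -1.10 ± 0.38 (SE), with an adjusted p of 0.297 by edgeR's test (0.0165 to 1 over the alternatives). All S+P C5 samples were below all N+P C5 samples, as for 1.7% of all genes, with 172 CPM as the highest and 174 CPM as the lowest at the boundary. The difference was -0.995 ± 0.45 (SE) on the log2 scale, with an adjusted p of 0.836 by edgeR's test (0.0553 to 1 over the alternatives). The low ends 0.0165 and 0.0553 came from DESeq2 on separate technical libraries. S+P C7 vs. Sensitized gave -0.997 ± 0.43 (SE) and S+P C5 vs. Sensitized -0.71 ± 0.41 (adjusted p = 0.473, with 0.0741 to 1 over the alternatives, and 0.552, with 0.195 to 1, by edgeR's test).

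**Figure D3:**
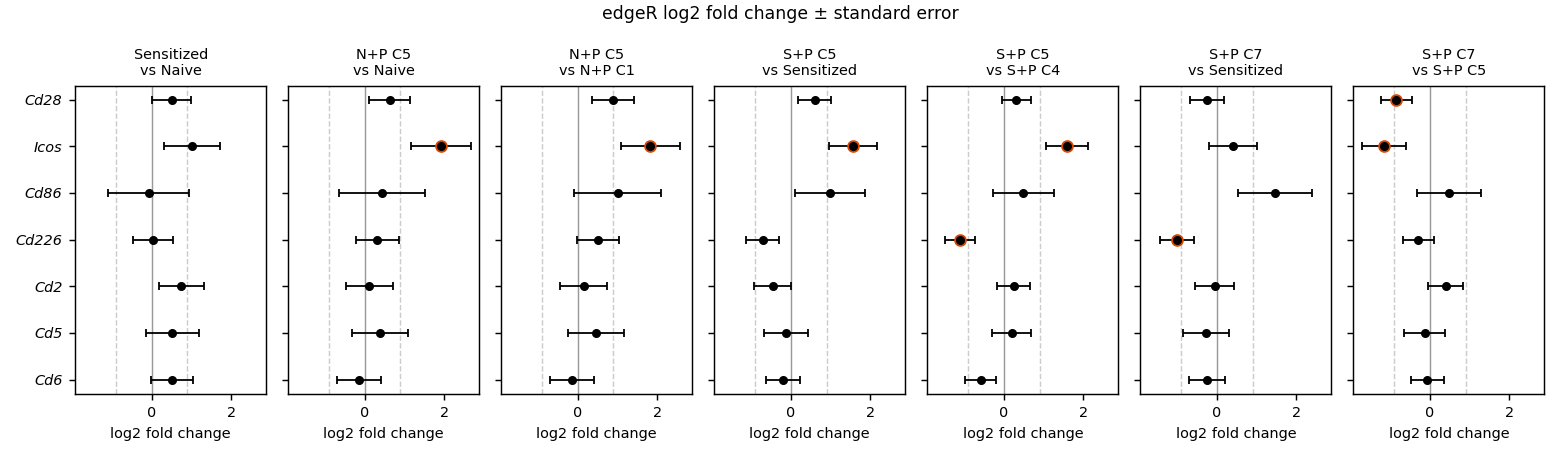
edgeR log2 fold change with its standard error (x axis) of 7 genes (rows, *Cd80* left out because whole groups are at 0) in 7 comparisons (panels), with larger orange points at an unadjusted p under 0.05 and dashed lines at ±0.9. *Icos* lies between 1.56 and 1.91 in the comparisons of a PD1+CD73+ subset with Naive, N+P C1, Sensitized or S+P C4, and no gene passed after adjustment.

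*Cd2* (ENSMUSG00000027863, GRCm39 chr3:101183215-101195458, minus strand), the adhesion receptor, was the member with the highest level per length of transcript. Its level was 541, 405 and 402 CPM in Naive and 958, 769, 718 and 568 CPM in Sensitized. The Sensitized samples were all above the Naive samples, as for 3.78% of all genes. The log2 fold change was 0.75 ± 0.56 (SE), which did not pass (adjusted p = 0.939 by edgeR's test, 0.161 to 1 over the alternatives). N+P C1 held 528, 392 and 398 CPM and N+P C5 held 526, 493 and 447 CPM, within or near the Naive range.

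The lowest, median and highest *Cd2* levels were 11.5, 442 and 798 CPM in S+P C4 and 358, 590.4 and 703 CPM in S+P C5, and S+P C7 samples held 961, 430, 722, 729 and 788 CPM. The 11.5 CPM was that of S+P C4 replicate 2, one of the samples with few genes detected. S+P C5 was at -0.46 ± 0.46 (SE) against Sensitized on the log2 scale, with an adjusted p of 1 by edgeR's test (0.247 to 1 over the alternatives).

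*Cd5* (ENSMUSG00000024669, GRCm39 chr19:10694480-10716366, minus strand) and *Cd6* (ENSMUSG00000024670, GRCm39 chr19:10766705-10807422, minus strand) are neighbours on 1 chromosome. *Cd5*, whose product dampens antigen receptor signals, was at 168, 111 and 139 CPM in Naive, 176, 99.6 and 123 CPM in N+P C1, 231, 189 and 126 CPM in N+P C5, and 245, 133, 242 and 178 CPM in Sensitized. In S+P C4 its lowest, median and highest levels were 51.9, 163 and 259 CPM, and in S+P C5 they were 102, 195 and 280.2 CPM. S+P C7 samples held 155, 5.00, 326, 202 and 145 CPM, and the sample at 5.00 CPM was again replicate 3. The groups overlapped in all 10 comparisons of 2 groups.

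*Cd6*, a receptor for the adhesion molecule ALCAM, was at 156, 168 and 247 CPM in Naive, 270.2, 142 and 162 CPM in N+P C1, 195, 187 and 135 CPM in N+P C5, and 333, 94.1, 421 and 239 CPM in Sensitized. In S+P C4 its lowest, median and highest levels were 159, 256 and 895 CPM, and in S+P C5 they were 125, 217 and 372 CPM. S+P C7 samples held 208, 158, 296, 292 and 185 CPM. The largest absolute log2 fold change of *Cd6* in a comparison of 2 groups was -0.58 ± 0.39 (SE), in S+P C5 vs. S+P C4 (adjusted p = 0.627 by edgeR's test, 0.423 to 1 over the alternatives), and that of *Cd5* was 0.52 ± 0.67, in Sensitized vs. Naive (adjusted p = 1, with 0.66 to 1 over the alternatives).

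Scaled to exon length, the median over the 30 samples was 275 CPM per kb for *Cd2*, 78.9 for *Cd28*, 43.7 for *Icos*, 34.7 for *Cd226*, 34.0 for *Cd5*, 24.1 for *Cd6*, 11.5 for *Cd86* and 0.239 for *Cd80*. *Cd226* and *Cd5* were close on this scale, and their ranges over the samples overlapped. The lengths are unions of annotated exons, so a gene read mainly as a short transcript is set too low.

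**Figure D4:**
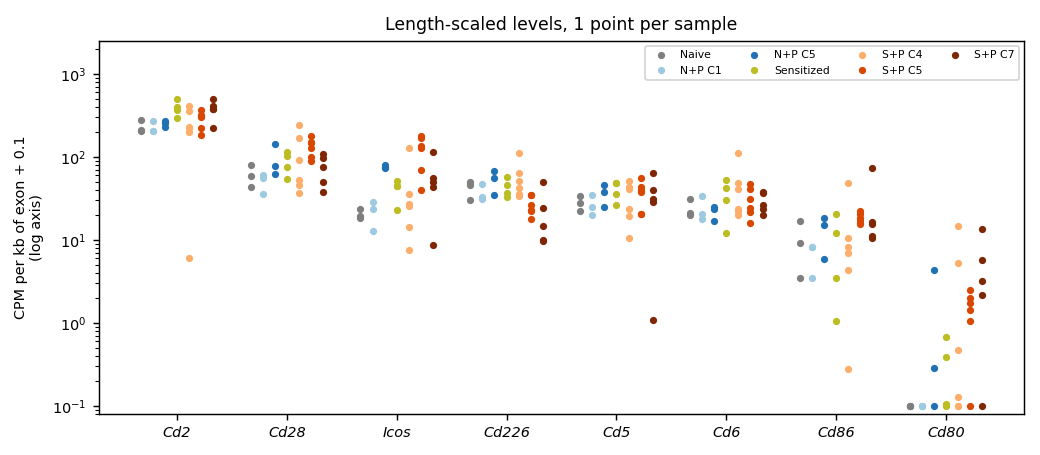
Length-scaled level (y axis, CPM per kb of exon + 0.1, log axis) of the 8 genes (x axis, in falling order of their median), with 1 point per sample coloured by group. *Cd2* lies highest, with a median of 275 CPM per kb, and *Cd80* lowest, with 12 of 30 samples at 0.

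Across the 30 samples, *Cd5* and *Cd6* had the highest Spearman correlation among the 28 pairs of members (0.709), followed by *Cd80* with *Cd2* (0.585) and *Cd28* with *Icos* (0.582), and the lowest was *Cd86* with *Cd226* (-0.42). The samples share mice and subsets and differ in depth, so these are descriptions. Among 8264 genes with a mean of at least 10 CPM, those most like *Icos* over the 30 samples were *Tnfsf11* (0.88), *Rel* (0.853) and *Ptpn11* (0.851), and those most like *Cd28* were *Bcl2a1b* (0.833), *D830050J10Rik* (0.811) and *Rnf138* (0.741). *Bcl2a1b* has near-identical copies, between which its reads cannot be divided with certainty. For *Cd80* they were *Gem* (0.855), *Bhlhe40* (0.816) and *Ctsd* (0.779), and for *Cd86* they were *Mif4gd* (0.691), *Mrpl42* (0.673) and *Gdi2* (0.67). *Slco3a1* (0.72), *Tsc22d3* (0.659) and *Pag1* (0.657) came nearest to *Cd226*, and *Lsp1* (0.854), *Clic1* (0.842) and *Cyba* (0.842) to *Cd2*. *Rab19* (0.744), *Ucp2* (0.74) and *Sp110* (0.711) came nearest to *Cd5*, while *Cd5* itself, *Slc35d2* (0.645) and *Agpat3* (0.627) came nearest to *Cd6*.

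The ligands and competing receptors of these molecules were read as a list of 11 genes, 10 of them tested. 1 gene passed both thresholds, *Tigit*, the inhibitory receptor that competes with CD226, which rose in S+P C5 vs. Sensitized. 0.0305% of all genes rose there by both thresholds. *Tigit* averaged 433 ± 262 CPM (SD, n = 6) in S+P C5 and 12.8 ± 5.72 CPM (SD, n = 4) in Sensitized, and its log2 fold change was 5.07 ± 1.10 (SE). Its adjusted p was 0.0892 by edgeR's test, near the threshold. It was called in 17 of 43 alternatives, among them the main fit read with no minimum fold change. The adjusted p-values over the alternatives were 4.23e-14 to 0.428, the lowest from DESeq2 on separate technical libraries. The call was lost in 23 of the 30 fits that left out 1 sample, among them every fit without a Sensitized or an S+P C5 sample. *Cd226*, whose product shares ligands with TIGIT, was at -0.71 on the log2 scale in the same comparison.

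In N+P C5 vs. Naive *Tigit* averaged 117 ± 22.7 CPM (SD, n = 3) against 6.79 ± 5.79 (SD, n = 3). Its log2 fold change there was 4.10 ± 1.24 (SE), and its adjusted p was 0.755 by edgeR's test (0.00013 to 1 over the alternatives). In all, 5 of the 10 genes (*Tigit*, *Pvrig*, *Alcam*, *Ctla4* and *Cd48*) were higher at an unadjusted p below 0.05 there, where 5.33% of all genes had such a p in either direction. *Pvrig*, a receptor for CD112, had the next smallest p there after *Tigit*, at 1.11 ± 1.93 CPM (SD, n = 3) against 0 in Naive. Its SD exceeded its mean, and the PD1- subset N+P C1 held more, at 2.07 ± 3.58 CPM (SD, n = 3). In N+P C5 vs. N+P C1, 1 of the 10 genes was higher at an unadjusted p below 0.05, beside 4.31% of all genes in either direction. *Ctla4*, the competitor of CD28, had 327 ± 162 CPM (SD, n = 6) in S+P C5 and 57.5 ± 30.5 (SD, n = 4) in Sensitized, a log2 fold change of 2.51 ± 0.98 (SE) that did not pass (adjusted p = 0.277 by edgeR's test, 0.00155 to 0.965 over the alternatives). The median log2 fold change of the 10 tested genes was 1.74 in N+P C5 vs. Naive, beside 0.0 for all genes, and 0.45 in S+P C5 vs. Sensitized, beside -0.01. This list was chosen with earlier results of these data known. The paper names *Tigit* and *Ctla4* among the genes raised in both comparisons. The counts and medians of the list are therefore descriptions and no test of it.

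Of 30 signalling genes below CD28, ICOS, CD2, CD5 and CD6, all were tested and 0 passed both thresholds by edgeR's test in any comparison, while 2 were higher at an unadjusted p below 0.05 in N+P C5 vs. Naive and 2 higher and 1 lower in S+P C5 vs. Sensitized. Over all genes, 5.33% and 13.0% had such a p in these comparisons, so the list was near or below the background. The median log2 fold change of the list was 0.02 and 0.03 in these comparisons, close to that of all genes. *Fyn*, a kinase of the Src family, averaged 245 ± 98.1 CPM (SD, n = 3) where Naive had 102 ± 26.5 (SD, n = 3), and 439 ± 82.4 (SD, n = 6) in S+P C5 and 210 ± 63.8 (SD, n = 4) in Sensitized. *Ptpn11*, which encodes the phosphatase SHP-2, was at 178 ± 22.9 CPM (SD, n = 3) against 24.8 ± 3.20 (SD, n = 3), and at 207 ± 97.2 (SD, n = 6) against 40.7 ± 18.7 (SD, n = 4). For both genes the groups did not overlap in either comparison, as for 7.4% of all genes upward in N+P C5 vs. Naive and 1.45% in S+P C5 vs. Sensitized. The adjusted p-values by edgeR's test were 0.765 for both genes in N+P C5 vs. Naive (0.0012 to 1 over the alternatives for *Fyn* and 0.00134 to 1 for *Ptpn11*), and 0.277 (0.000366 to 0.558) and 0.29 (0.000545 to 1) in S+P C5 vs. Sensitized.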

How the data were processed

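The values the authors deposited are counts of reads for each gene in each library, which were not normalized. Per the submitters' processing notes and the paper's methods, reads were trimmed with cutadapt 3.4, aligned to GRCm39 with STAR 2.6.1b and counted with featureCounts 2.0.1 after reads that mapped to several places were removed. Strand settings and the annotation release are not given in the sources used here. The 56 libraries had 6636532 to 32625243 counts. Gene positions and exon lengths came from GENCODE M39, which held 54749 of the 55359 genes.

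Technical libraries were summed per replicate and subset, giving 30 samples of the 31 labelled. Counts were fitted with edgeR 4.0.16 in R 4.3.3 (TMM scaling, filterByExpr at a minimum count of 10, and 1 robust quasi-likelihood model for the 7 groups, tested two-sided) and p-values were adjusted by the Benjamini-Hochberg method over 19657 genes. A standard error is the absolute log2 fold change divided by the square root of F. DESeq2 1.42.0 was an alternative. The study's thresholds were used. Python 3.11.15, pandas 2.3.3 and matplotlib 3.10.9 made the tables and plots.

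The members and lists were chosen with earlier results of these data known. Genes named beside the members are those of 2 lists that passed both thresholds, the 2 of each list with the smallest p in N+P C5 vs. Naive and in S+P C5 vs. Sensitized, and the 3 genes most like each member. Single markers of other cell types, and *Alcam* and *Cd48*, were named after their values were seen.

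The replicate numbers are those in the sample titles. Subsets that share a kind of mouse and a number were read as sorted from 1 mouse, which the labels do not state outright. The deviations of same-numbered samples from their group means correlated at a mean r of 0.139 for S+P C4 and C5 and 0.157 for S+P C5 and C7 across genes, and at 0.0749 for N+P C1 and C5, against -0.0187, -0.0218 and -0.0374 for different numbers. The lowest r of a same-numbered pair was 0.0974, 0.123 and 0.0225. The main model held the group only, so same-numbered subsets entered it as separate samples. Its p-values for S+P C5 vs. S+P C4, S+P C7 against S+P C5 and N+P C5 vs. N+P C1 thus do not use the pairing. The p-values measure only the spread between these samples.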

Additional observations from a re-analysis of the deposited data

Results flagged for a closer look

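5 values lay far from the other samples of their group by Dixon's test at the 95% level, among 32 gene and group combinations tested. Chance alone gives such a value in about 1 in 20 groups if the values are normally distributed. CPM values need not be, and the combinations share samples, so this rate is only a guide. *Icos* was at 443 CPM in S+P C4 replicate 2, where the nearest sample held 121 CPM and the gap was 0.772 of the range. *Cd86* was at 184 CPM in the same sample, next to 39.8 CPM. *Cd6* was at 895 CPM in S+P C4 replicate 3, next to 386 CPM. Both samples had fewer than 9000 genes detected. *Cd86* was at 282 CPM in S+P C7 replicate 3, next to 61.8 CPM, in the sample that also had few genes detected and held 8230 CPM of *Ighm* and 1260 CPM of *H2-Aa* beside NK cell and red cell markers. *Cd80* was at 59.8 CPM in S+P C4 replicate 1, next to 21.4 CPM, in a sample with 12383 genes detected, 76.2 CPM of *Itgax* and 19.1 CPM of *Csf1r*, which was at 0 in the other S+P C4 samples. The cause of these values was not tested.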

How the results depend on the processing

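The number of the 8 genes past both thresholds was 0 in every comparison and stayed so in 452 of 473 alternative results, among them all that left out 1 sample (0 to 0 in each comparison). The other 21 gave 1 to 3 genes. The 473 include the main fit read again at an adjusted p below 0.05, which could only give 0, and with no minimum fold change. The alternative fold changes counted below include these readings too, which equal the main values. DESeq2 on summed libraries gave 1 (*Cd80*) in Sensitized vs. Naive, N+P C5 vs. Naive, N+P C5 vs. N+P C1 and the difference between the pregnancy effects, and 2 (*Icos*, *Cd226*) in S+P C5 vs. S+P C4. edgeR on separate technical libraries treats technical libraries as mice. It gave 1 (*Icos*) in N+P C5 vs. Naive, N+P C5 vs. N+P C1 and S+P C5 vs. Sensitized. In S+P C5 vs. S+P C4 that fit gave 2 (*Icos*, *Cd226*). DESeq2 on separate libraries, which treats technical libraries as mice, gave 1 (*Cd80*) in Sensitized vs. Naive, 2 (*Icos*, *Cd80*) in N+P C5 vs. Naive, 3 (with *Cd28*) in N+P C5 vs. N+P C1, 1 (*Icos*) in S+P C5 vs. Sensitized, 2 (*Icos*, *Cd226*) in S+P C5 vs. S+P C4, 1 (*Cd226*) in S+P C5 against N+P C5 and 1 (*Cd80*) for the difference. Fitting only the groups compared gave 1 (*Icos*) in N+P C5 vs. Naive and N+P C5 vs. N+P C1. Leaving out the samples with fewer than 9000 genes gave 1 (*Icos*) in N+P C5 vs. Naive, S+P C5 vs. Sensitized and S+P C5 vs. S+P C4. The cause was not tested. With the replicate number added to the model (the replicate block) 0 members passed in each comparison. The number joins subsets read as from 1 mouse only in S+P C5 vs. S+P C4, S+P C7 against S+P C5 and N+P C5 vs. N+P C1. In the other comparisons it joins different mice, so the block there says nothing about pairing. *Icos* in S+P C5 vs. S+P C4 had a log2 fold change of 2.03 and an adjusted p of 0.31 by edgeR's test with the block. Of 1236 alternative values of the 29 fold changes of members chosen for the text, 1209 kept their direction and side of the threshold, 27 came to pass it and 0 reversed. Over all 88 fold changes of the 8 genes, 131 of 3765 alternative values reversed, in 32 of the 88, and 75 of these came from fits that left out 1 sample. *Cd86* in Sensitized vs. Naive, for example, ran from -0.82 to 0.57 with 1 sample left out. Counts over all genes moved far more, from 8 to between 5 and 1015 in N+P C5 vs. Naive, from 14 to between 7 and 1134 in S+P C5 vs. Sensitized, from 6 to between 0 and 1011 in S+P C5 vs. S+P C4 and from 30 to between 2 and 1102 in Sensitized vs. Naive. Technical libraries differed by more than 1 on the log2(CPM + 1) scale in 10 of 23 pairs for *Cd80*, where 6 pairs had no count in 1 library, and in 11 pairs for *Cd86*. The 0 counts of *Cd80* in Naive allow up to 0.0371 CPM by counting error alone. This limit does not cover such differences between technical libraries.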
